A study of Mus musculus with 8 samples.

Results

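The genes described here are those of the replicative helicase and of origin licensing. They are the 6 subunits of the MCM hexamer (Mcm2, Mcm3, Mcm4, Mcm5, Mcm6 and Mcm7), the loaders Cdc6 and Cdt1, and the activators Cdc45 and Gins2. These 10 genes were chosen by name from 24306 genes measured on 8 mouse arrays, and each was read from its brightest spot, the one with the highest mean over the arrays. Signals are on the log2 scale throughout, where a difference of 1 is 2-fold.

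In a cell that is about to divide, the origin recognition complex marks the sites where DNA copying can start. In G1, Cdc6 and Cdt1 load MCM hexamers onto these origins, a step called licensing. In S phase Cdc45 and the GINS complex join each hexamer and turn it into the active helicase that unwinds DNA. Genes of this machinery are classic targets of E2F transcription factors, and their mRNAs are low in resting cells. The alveolar epithelium turns over slowly, and AT2s, the surfactant-making cells of the alveolus, are its known progenitors.

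All cells came from mice of 9 to 12 weeks, of both sexes, carrying Sftpc-CreERT2/+ and tdTomato flox/flox, which were given tamoxifen (1 mg/ml) in their drinking water. Control mice had wild-type Fgfr2b and experimental mice were Fgfr2b flox/flox, so the Cre, the reporter and the tamoxifen were common to every group and the Cre acted where Sftpc is expressed. Cells with high Tomato were sorted as AT2s and cells with low Tomato as injury activated alveolar progenitors (IAAPs), from control (C-) and experimental (E-) lungs. Each control set had 1 array, of day 7, and each experimental set had 3, of days 4, 7 and 14. How many animals went into an array is not given in the sources used here. In tests that involve a control set the days stood in for replicates, so p-values measure the spread between days. Each lone control array was assumed to vary as the experimental ones did. E-IAAPs against E-AT2s, and day 14 against day 4, were instead fitted with day and population as terms. Their p-values measure the spread left after both terms. For day 14 against day 4 the populations stood in for replicates.

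The background level of an array was set as the 95 percentile of 1411 sensory receptor genes, taken as a set that these cells do not express. Levels were 6.47 to 7.28 on 7 arrays but 8.69 for C-IAAPs, where 26.5% of genes lay above it against 40.8% to 46.4% elsewhere. The C-IAAP array correlated with the others at r = 0.845 to 0.876 over all genes. All 12 AT2 markers were above background on all 8 arrays, with Sftpc at 15.79 or more, while of 8 endothelial markers 1 or 2 were on each array and of 8 fibroblast markers 1 was, on the C-AT2 array only (Pecam1 and Col1a1 on none). The club cell marker Scgb1a1 was high on every array (14.44 or more). Foxj1, the ciliated cell marker, read 2.03 in C-AT2s, 7.79 in C-IAAPs, 3.26 to 4.27 in E-AT2s and 7.35, 8.68 and 12.62 in E-IAAPs of days 4, 7 and 14. It was above background on 3 arrays, those of E-IAAPs. Ager, a marker of AT1 cells, was also high throughout (14.15 to 14.77). Pdpn, another AT1 marker, read from 4.61 in C-AT2s to 9.06 in C-IAAPs and was above background on 5 arrays. Of 10 AT1 genes, 6 (E-AT2s of day 7) to 10 (C-IAAPs) were above background on an array. Genes of alveolar macrophages (22 measured) had a median signal of 5.63 in C-AT2s and 5.92, 6.11 and 7.27 in E-AT2s of days 4, 7 and 14, against 9.47 in C-IAAPs and 11.38 to 11.64 in E-IAAPs. Fgfr2, the targeted gene, read 12.45 (C-AT2s), 11.72 (C-IAAPs), 11.68 to 12.1 (E-AT2s) and 10.87 to 11.83 (E-IAAPs), and its spot was not placed relative to the deleted exon.

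Promoter sequence was taken from RefSeq (GRCm38), as 250 bases before and 50 bases after each start site. It was in the table for 8 of the 10 genes (all but Mcm4 and Gins2), with 9 promoters. They were searched on both strands for 4 forms of the E2F site, TTTCCCGC, TTTGGCGC, TTTCGCGC and TTTGCCGC. Of the 8 genes, 6 held at least 1 match (Mcm3, Mcm5, Mcm6, Mcm7, Cdt1 and Cdc6) and Mcm2 and Cdc45 held none, while 2.6% of the 27025 genes in the table did, or 2.26% of its 32851 promoters. A match is a run of letters and not a measured binding site. The 3 hexamer promoters with matches upstream of the start site are shown with that of Mcm2 for contrast, as 120 bases each. Capitals mark the matches, read from either strand, and in Mcm6 and Mcm5 a pair of matches overlaps to form 1 longer run.
Mcm6 (chr1:128359716-128359835, minus strand): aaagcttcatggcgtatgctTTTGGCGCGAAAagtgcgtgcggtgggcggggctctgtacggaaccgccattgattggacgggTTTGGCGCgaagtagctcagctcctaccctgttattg
Mcm5 (chr8:75109329-75109448, plus strand): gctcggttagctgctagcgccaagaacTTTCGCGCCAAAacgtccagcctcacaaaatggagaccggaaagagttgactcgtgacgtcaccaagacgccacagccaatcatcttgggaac
Mcm7 (chr5:138171944-138172063, minus strand): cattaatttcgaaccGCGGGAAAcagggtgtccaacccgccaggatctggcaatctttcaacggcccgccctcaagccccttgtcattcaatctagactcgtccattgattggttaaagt
Mcm2 (chr6:88898791-88898910, minus strand): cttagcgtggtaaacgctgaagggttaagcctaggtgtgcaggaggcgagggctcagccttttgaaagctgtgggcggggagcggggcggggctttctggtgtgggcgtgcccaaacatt

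Signals of the hexamer were lower in C-AT2s than in E-AT2s and E-IAAPs. Mcm6 read 10.35 in C-AT2s, 11.03, 12.08 and 11.38 in E-AT2s of days 4, 7 and 14, and 11.4, 11.94 and 11.84 in E-IAAPs of the same days. Mcm4 read 10.34 in C-AT2s, 10.88, 11.8 and 11.18 in E-AT2s, and 11.19, 11.53 and 11.75 in E-IAAPs. Mcm7 read 9.9 in C-AT2s, 10.61, 11.62 and 10.7 in E-AT2s, and 10.68, 11.4 and 11.61 in E-IAAPs. For these 3 subunits, which were above background on all 8 arrays, no experimental array came down to the C-AT2 level. The C-IAAP array did not take 1 place for them, since Mcm4 (11.35) and Mcm7 (10.98) lay above C-AT2s there and Mcm6 (9.17) lay below.

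Mcm3 had the widest span of the hexamer genes among arrays where it was above background. It read 7.58 in C-AT2s, 8.9, 10.69 and 9.13 in E-AT2s, and 10.44, 10.7 and 10.66 in E-IAAPs, and its 8.18 in C-IAAPs was under that array's background. The 3 E-IAAP arrays lay within 0.26 of each other, whereas the E-AT2 arrays spread over 1.79. Mcm2 read 6.27 in C-AT2s, 7.82, 8.35 and 7.03 in E-AT2s, 7.51, 7.89 and 6.47 in E-IAAPs, and 3.43 in C-IAAPs. Mcm5 read 5.94 in C-AT2s, 6.58, 8.62 and 7.43 in E-AT2s, 7.13, 8.22 and 7.84 in E-IAAPs, and 8.58 in C-IAAPs. Both of these dimmer genes were under background in the control sets, Mcm5 also in E-AT2s of day 4 and Mcm2 also in E-IAAPs of day 14.

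The loaders and activators were dim. Cdt1, the licensing factor that is destroyed once S phase begins, read 5.12 in C-AT2s, 6.69, 7.0 and 6.88 in E-AT2s, 7.6, 7.35 and 7.55 in E-IAAPs, and 7.56 in C-IAAPs. It was above background on 4 arrays, the 3 of E-IAAPs and E-AT2s of day 14. Cdc6, the ATPase that holds the loading complex together, stayed within 0.91 over all arrays, from 6.75 in E-IAAPs of day 4 to 7.66 in E-IAAPs of day 14. Gins2, a subunit of GINS, read 7.48 in C-AT2s, 7.31, 8.57 and 7.46 in E-AT2s, 7.84, 8.63 and 8.56 in E-IAAPs, and 9.23 in C-IAAPs, above background on all 8. Cdc45 was below background everywhere on its brighter spot (5.22 to 6.57), and its other spot passed background only in E-AT2s of day 7 (7.71).

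**Figure D1:**
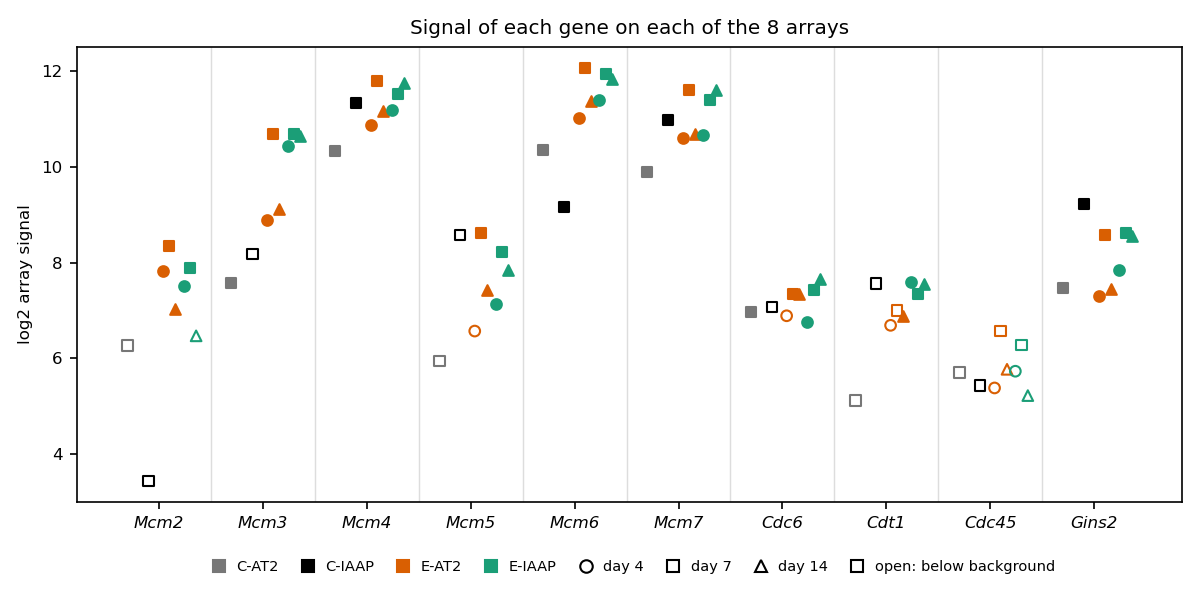
Log2 array signal (vertical axis) of the 10 genes (horizontal axis), 1 point for each of the 8 arrays, coloured by set and shaped by day, with open points below that array's background level. C-AT2s (grey) lie under all 6 experimental arrays for the 6 hexamer genes and Cdt1, and the C-IAAP point (black) is at 3.43 for Mcm2 and 9.23 for Gins2.

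The comparison of E-AT2s with C-AT2s asks how these genes differ in Tomato-high cells between Fgfr2b flox/flox and control lungs. At day 7, the day both sets share, all 10 genes were higher on the E-AT2 array than on the C-AT2 array. Mcm3 was 8.6-fold higher, Mcm6 3.31-fold, Mcm7 3.28-fold, Mcm4 2.76-fold and Gins2 2.13-fold. Mcm5 was at least 3.21-fold and Mcm2 at least 2.67-fold higher, bounds set by the C-AT2 background level. By log2 signal 8 of 10 genes passed 2-fold (all but Cdc6 and Cdc45), while 11.6% of all genes did, and none of the 10 was lower by that much. Cdt1 is counted among the 8, but its readings (5.12 and 7.0) were under background on both arrays, so no fold was set. These are single arrays and carry no test.

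Over the 3 days the difference was in the same direction for all 10 genes but passed no test. The median log2 difference, E-AT2s minus C-AT2s, was 1.11 over the 10 genes and 0.01 over all genes, of which 51.0% were above 0. Mcm3 differed by 1.99 (standard error 0.68, 3.97-fold, 95% interval 0.37 to 3.61), and limma with Benjamini-Hochberg adjustment over all genes gave adjusted p = 0.628. Cdt1 differed by 1.73 (standard error 0.33, adjusted p = 0.27 by limma), with 2 of 3 E-AT2 arrays and the C-AT2 array under background. Mcm6 differed by 1.14 (2.21-fold), Mcm7 by 1.07 (2.1-fold) and Mcm4 by 0.95 (1.93-fold), each with an interval that reached below 0. Limma called 0 of the 10 and 0.0% of all genes in this comparison, with 2 of the 10 and 1609 of all genes at an unadjusted p under 0.05. Without the experimental arrays of day 7 the signs of Gins2 and Cdc45 turned (-0.1 and -0.13), and Gins2's second spot gave -0.59 over the 3 days.

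The 6 hexamer genes and Cdt1 read lower in C-AT2s than on any of the 6 experimental arrays. That is 7 of 10 genes, against 14.6% of all genes and 14.1% of the 12153 genes with the higher means. For 3 of the 7 the order rests in part on readings under background on both sides. These are Mcm2 (6.27 against 6.47 in E-IAAPs of day 14), Mcm5 (5.94 against 6.58 in E-AT2s of day 4) and Cdt1 (5.12 against 6.69 and 7.0 in E-AT2s of days 4 and 7). Every spot gave the same direction at day 7. The 10 genes had 18 spots between them, and all 18 were higher in E-AT2s than in C-AT2s, by 0.38 to 4.15 with a median of 1.94. Across 14 of the 18 spots C-AT2s lay under all 6 experimental arrays. The share of all spots on the arrays with these patterns was not counted, and spots of 1 gene share the same arrays. In C-AT2s the dimmer spots of Mcm3 (4.72, 4.1 and 4.98), Cdc6 (3.7), Cdc45 (4.47) and Gins2 (6.24) lay under background (6.94). Macrophage and leukocyte genes had medians of 6.11 and 6.47 in E-AT2s of day 7 and 5.63 and 6.55 in C-AT2s. These medians lay under background (7.05 and 6.94), so they do not show how far such cells differed between the arrays. In the fit over 3 days 16 of 22 macrophage and 8 of 14 leukocyte genes were above 0 and 0 were called, with Fabp4 at 3.02 and Cd53 at -1.87. Their part in the values of the 10 genes was not tested.

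**Figure D2:**
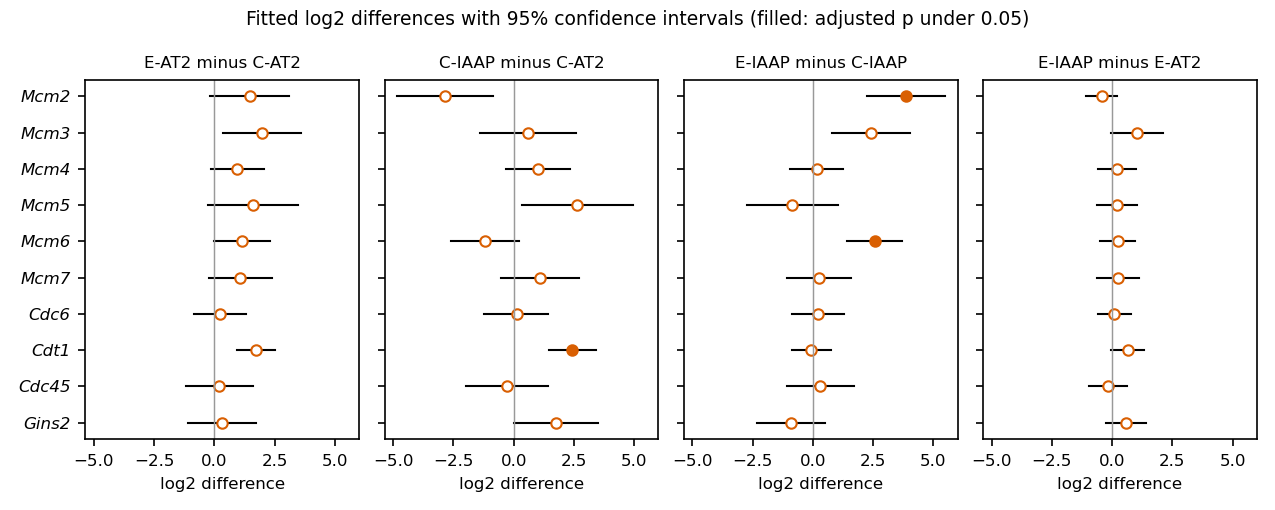
Fitted log2 difference (horizontal axis) of each of the 10 genes (vertical axis) in 4 comparisons, with 95% confidence intervals from limma, filled where the adjusted p was under 0.05. All 10 points lie right of 0 for E-AT2s minus C-AT2s with none filled, and intervals are narrowest for E-IAAPs minus E-AT2s.

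Among E-AT2s the genes were highest at day 7. This held for 9 of 10 genes, all but Cdc6 (7.34 at day 7 and 7.35 at day 14), while 37.0% of all genes were highest on that array of the 3. In E-IAAPs day 4 was the lowest for 7 of 10 (Mcm3, Mcm4, Mcm5, Mcm6, Mcm7, Cdc6 and Gins2), against 34.7% of all genes, and most of these stayed near their day 7 level at day 14. Mcm2 went from 7.89 at day 7 to 6.47 at day 14 there. The mean of the 10 genes, each centred on its own mean over the 8 arrays, was -0.97 in C-AT2s and -0.43 in C-IAAPs. In E-AT2s it was -0.32, 0.73 and -0.1 at days 4, 7 and 14, and in E-IAAPs 0.1, 0.61 and 0.39.

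Between days 14 and 4, with both populations in 1 limma fit, 0 of the 10 genes and 0.0% of all genes passed the test. At an unadjusted p under 0.05 the count was 1 of the 10 (Mcm2) and 1178 of all genes. Mcm2 differed by -0.91 (standard error 0.31, adjusted p = 0.924) and Mcm5 by 0.79 (standard error 0.38, adjusted p = 0.924). Of the airway markers 8 of 8 were above 0 here (51.6% of all genes were), with a median of 1.3 and 0 called. Above 0 too were 20 of 22 macrophage genes (median 0.62), 12 of 14 leukocyte genes (0.29) and 18 of 19 mitosis genes (1.59). Of 12 AT2 markers 4 were (median -0.25). None of these lists had a gene called, and their part in the values of the 10 genes was not tested.

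**Figure D3:**
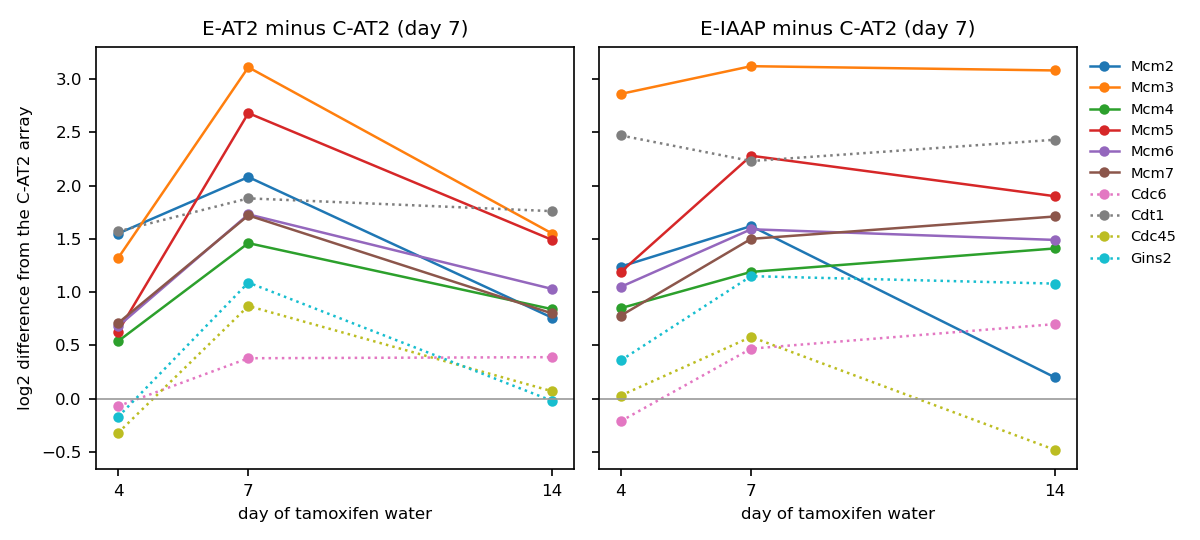
Log2 difference of each gene from the C-AT2 array of day 7 (vertical axis) against the day of tamoxifen water (horizontal axis), in E-AT2s (left) and E-IAAPs (right), with 1 array per point, solid lines for the hexamer and dotted lines for the other genes. In E-AT2s the lines for 9 of 10 genes peak at day 7, and Mcm3 in E-IAAPs stays near 3 on all 3 days.

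E-IAAPs were compared with E-AT2s to ask whether the Tomato-low and Tomato-high cells of the experimental lungs differ in these genes. None of the 10 passed the limma test, in which 1.31% of all genes did, and none had an unadjusted p under 0.05. The widest difference was that of Mcm3, at 1.03 higher in E-IAAPs (standard error 0.41, adjusted p = 0.44), with a 95% interval of -0.04 to 2.1. Cdt1 was 0.64 higher (standard error 0.27, adjusted p = 0.454, interval -0.06 to 1.34) and Gins2 0.56 higher (interval -0.26 to 1.39). For Mcm4, Mcm5, Mcm6 and Mcm7 the differences were 0.19 to 0.26, and their intervals lay between -0.63 and 1.12, so a 2-fold difference was outside the intervals of Mcm4 (-0.57 to 0.97) and Mcm6 (-0.49 to 0.95). Mcm2 was 0.44 lower in E-IAAPs by log2 signal (difference -0.44, interval -1.1 to 0.21).

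Day by day, Mcm3, Cdt1 and Gins2 had the higher E-IAAP reading on all 3 days, 3 of 10 genes against 15.5% of all genes. The E-IAAP and E-AT2 arrays did not overlap for 1 of the 10, Cdt1 (7.35 to 7.6 against 6.69 to 7.0), and for 19.2% of all genes. At day 7 itself none of the 10 differed by over 2-fold between the populations, whereas 25.4% of all genes did in one direction or the other. The differences on that day ran from -0.46 for Mcm2 to 0.35 for Cdt1. Macrophage markers moved with this comparison, since 18 of 22 measured were called higher, at a median of 4.94 on the log2 scale. Airway markers moved too, with 8 of 8 above 0 (45.5% of all genes were), a median of 1.84 and 1 called (Dnah5). The part of either set of markers in the Mcm3, Cdt1 and Gins2 values was not tested.

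E-IAAPs were compared with C-IAAPs, the same gate in control lungs. Mcm6 rose by 2.56 (standard error 0.49, 5.89-fold, adjusted p = 0.0166 by limma), the E-IAAP mean being 11.73 ± 0.29 (SD, n = 3 days) and the C-IAAP reading 9.17. Mcm2 was called too (difference 3.86, standard error 0.69, adjusted p = 0.0134), but its E-IAAP mean of 7.29 lay under the C-IAAP background level of 8.69, so no fold was set. With values under an array's background level raised to it, its difference was -1.13. Mcm3 was at least 3.76-fold higher in E-IAAPs (difference 2.42, standard error 0.68, adjusted p = 0.0542), which missed the threshold. The 2 genes called higher of 10 stand beside 9.35% of all genes. At day 7 alone, 3 of 10 (Mcm2, Mcm3 and Mcm6) were over 2-fold higher and none lower, while 21.3% of all genes were higher. Macrophage markers moved with this comparison as well, 7 of 22 being called higher with a median over the 22 of 1.25, and their part in the Mcm6 and Mcm2 values was not tested.

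Other members gave values close to 0 or below it in that comparison. Mcm4, Mcm7 and Cdc6 differed by 0.15, 0.25 and 0.2, with intervals that reached over 1 on both sides or nearly so (-0.95 to 1.24 for Mcm4). Gins2 differed by -0.89 (interval -2.3 to 0.51) and Mcm5 by -0.85 (interval -2.73 to 1.02). Each call was lost without 1 of the days. Without the arrays of day 4 Mcm2 had an adjusted p of 0.0765 by limma, and without those of day 14 Mcm6 had 0.0644.

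Within the control lungs, C-IAAPs against C-AT2s set 1 array against 1. Cdt1 was called higher in C-IAAPs (difference 2.43, standard error 0.41, adjusted p = 0.0143 by limma), yet both readings, 7.56 and 5.12, were below their array's background. Without the experimental arrays of day 4 or of day 14 its adjusted p was 0.0551 or 0.0504. It was 1 of 10 genes called higher, beside 6.11% of all genes. In the same comparison 12 of 22 macrophage and 10 of 14 leukocyte markers were called higher (medians 3.39 and 3.6), and their part was not tested. Log2 signals at day 7 were over 2-fold higher in C-IAAPs for 5 of 10 genes (Mcm4, Mcm5, Mcm7, Cdt1 and Gins2), as for 27.0% of all genes, and over 2-fold lower for 2 (Mcm2 and Mcm6), as for 22.8%. Among genes above background on both arrays, Gins2 was 3.38-fold, Mcm7 2.11-fold and Mcm4 2.01-fold higher, and Mcm6 was 2.27-fold lower, none past the limma test (adjusted p = 0.15 to 0.323). The hexamer thus had no common direction on the C-IAAP array.

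Different spots of 1 gene did not give 1 answer on the C-IAAP array. Mcm7's second spot read 5.45 there and 7.89 in C-AT2s, a difference of -2.44 where the brightest spot gave 1.08. Gins2's second spot read 3.79 and 6.24, a difference of -2.46 in place of 1.76. Mcm6's second spot read 4.32 and 8.05, with the same sign as the first and 3.73 lower (adjusted p = 0.00756 by limma on second spots). All 3 second spots lay under the C-IAAP background level (8.69) on that array. Their C-AT2 readings (7.89, 6.24 and 8.05) were under that level too, so these differences are not measured sizes and no fold was set. Over all 18 spots, 10 were higher and 8 lower in C-IAAPs than in C-AT2s.

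The same spots also change the comparison with E-IAAPs. Of the 18 spots, 15 were higher in E-IAAPs of day 7 than in C-IAAPs, and all 8 that were not the brightest of their gene were, by a median of 3.8. The share of all spots on the arrays with this direction was not counted. In the limma fit on second spots, a choice made after the data were seen, Mcm7 (difference 3.87, adjusted p = 0.014), Mcm3 (4.04, adjusted p = 0.0225) and Mcm6 (5.61, adjusted p = 0.002) were called higher, and Gins2 turned to 3.25 (adjusted p = 0.108). The C-IAAP readings behind these differences were below background, so the differences are not exact sizes. The disagreement was not particular to these genes. Of 2290 genes whose second spot had a mean over 8, 19.9% had brightest and second spots more than 3 apart on the C-IAAP array, whereas on each other array 9.2% to 11.4% did. Statements on C-IAAPs therefore depend on the spot, while those on E-AT2s against C-AT2s at day 7 had the same sign on every spot.

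**Figure D4:**
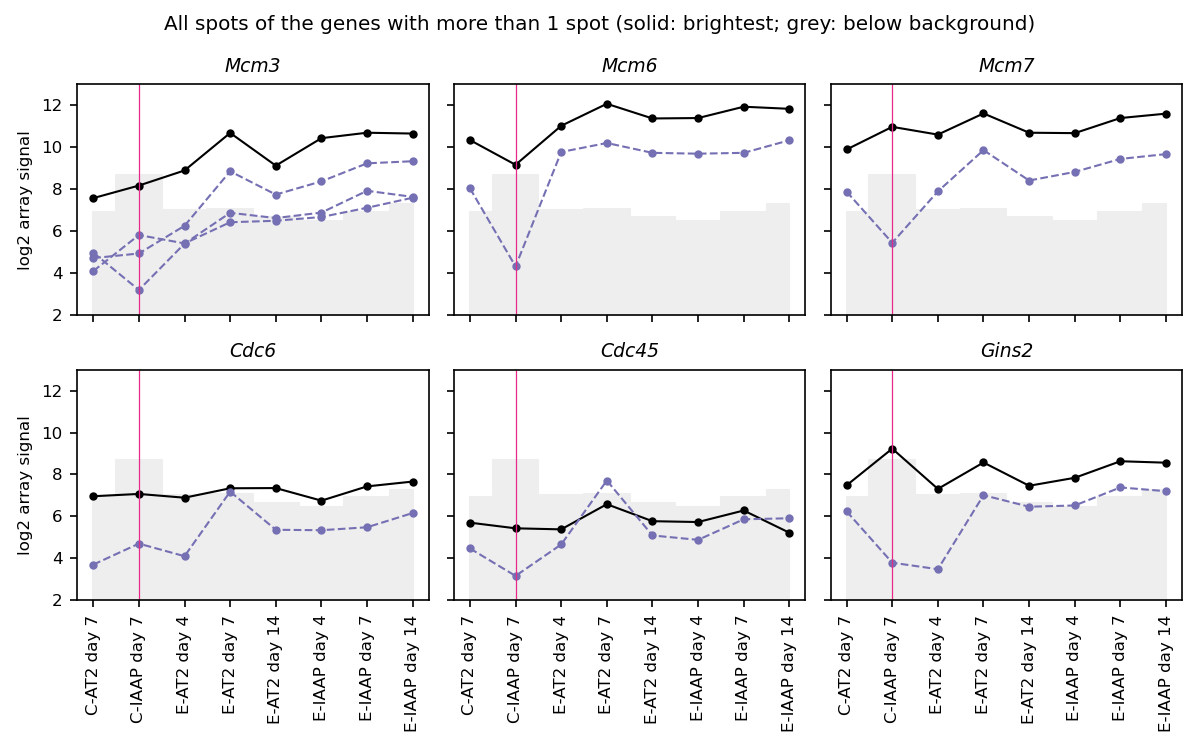
Log2 array signal (vertical axis) on the 8 arrays (horizontal axis) of every spot of the 6 genes with more than 1, the brightest solid and the others dashed, with grey up to each array's background level and a vertical line at the C-IAAP array. On that array the second spots of Mcm6, Mcm7 and Gins2 fall to 4.32, 5.45 and 3.79, while the brightest spots of Mcm7 and Gins2 read 10.98 and 9.23.

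Whether the step from control to experimental lungs differed between IAAPs and AT2s was tested as an interaction. None of the 10 genes passed, with 2 at an unadjusted p under 0.05 (Mcm2 and Cdt1), while limma called 4.37% of all genes. Cdt1 had an interaction of -1.79 (standard error 0.47, adjusted p = 0.0805), the E-IAAP minus C-IAAP difference (-0.06) being the smaller. Mcm2 had one of 2.4 (standard error 0.97, adjusted p = 0.2). For both genes the C-AT2 and C-IAAP readings were under background, so neither interaction is a measured size. With values under an array's background level raised to it, the Mcm2 interaction turned negative.

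Over the arrays other than C-IAAP, 5 hexamer genes followed each other closely. Pearson's r between pairs of Mcm3, Mcm4, Mcm5, Mcm6 and Mcm7 was 0.88 to 0.98 over 7 arrays, and r between Mcm2 and each of them was 0.45 to 0.56. With the C-IAAP array included, pairs among the 5 ranged from 0.15 (Mcm5 with Mcm6) to 0.98 (Mcm4 with Mcm7), and pairs with Mcm2 from -0.16 (Mcm5) to 0.87 (Mcm6). The arrays share 1 normalization and few groups, so these values describe the profiles and carry no test. Of 10492 genes above background on at least 4 arrays, the 5 most like the mean profile of the 10 genes were Vamp3 (r = 0.962), Emp1 (0.939), Cop1 (0.939), Cercam (0.938) and Cntrl (0.931), over 8 arrays. Vamp3, a vesicle fusion protein, spanned only 9.3 in C-AT2s to 10.03 in E-IAAPs of day 7, and Emp1, an epithelial membrane protein, spanned 8.04 in C-AT2s to 11.66 in E-IAAPs of day 14.

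Markers of cycling cells were read beside the licensing genes. Mki67, present in all cycling phases, read 6.45 in C-AT2s and 9.62 in C-IAAPs, then 8.95, 12.35 and 10.94 in E-AT2s and 10.91, 10.89 and 11.63 in E-IAAPs. Top2a, needed to part the chromosomes, read 2.08 in C-AT2s and 6.34 in C-IAAPs, then 4.61, 10.77 and 9.1 in E-AT2s, and 8.71, 9.22 and 10.14 in E-IAAPs. Top2a was under background in both control sets and in E-AT2s of day 4, and Mki67 was in C-AT2s. Both were thus highest in E-AT2s of day 7, as 9 of the 10 licensing genes were among E-AT2s. Of 19 mitosis genes, 7, 18 and 15 were above background in E-AT2s of days 4, 7 and 14, against 5 in C-AT2s, 5 in C-IAAPs and 12 to 15 in E-IAAPs. Their median difference, E-AT2s minus C-AT2s, was 2.29, with 17 of 19 above 0 and 0 called by limma (6 at an unadjusted p under 0.05). Whether more cells were in cycle or each cell held more of these mRNAs cannot be told apart in bulk samples. Pcna, the sliding clamp, spanned only 12.18 to 13.51, and Gmnn, the Cdt1 inhibitor geminin, read 5.73 in C-IAAPs and 6.47 in C-AT2s, against 6.99 to 8.19 in E-AT2s and 7.49 to 9.02 in E-IAAPs. Both control readings of Gmnn were under background.

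The rest of the replication machinery was read as 76 measured genes in 6 lists. In E-AT2s against C-AT2s, 56 of 76 were above 0 with a median of 0.36 (1.11 for the 10 licensing genes), and limma called 0, with 11 at an unadjusted p under 0.05. The median was 0.88 for the 7 genes of dNTP supply and 0.17 for the 25 of forks and polymerases. Chosen after their values were seen, Rrm2, a subunit of ribonucleotide reductase (4.59, adjusted p = 0.591), Timeless, a fork protection factor (3.35, adjusted p = 0.239), and Gins1, a partner of Gins2 (2.5, adjusted p = 0.531), had larger log2 differences than any of the 10. The C-AT2 readings of Timeless (4.25) and of Rrm2 were under background, so their differences are not exact sizes. In E-IAAPs against E-AT2s, limma called 0 of 76 (7 at an unadjusted p under 0.05), with a median of 0.19.

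Against C-IAAPs, 15 of the 76 were called higher in E-IAAPs (19.7%, against 9.35% of all genes) and 3 lower (3.95%, against 7.75%). Gins3, a further GINS subunit, was above background in both sets and rose 3.72-fold (difference 1.89, standard error 0.34, adjusted p = 0.0137 by limma). For the other 14 the C-IAAP reading lay under background. Of these, Rrm1, a subunit of ribonucleotide reductase, was at least 3.32-fold higher. Bounds for Cul4b, a ubiquitin ligase scaffold that acts on Cdt1 in human cells (at least 1.19-fold), Rfc3 of the clamp loader (at least 1.13-fold) and Mcmbp, an MCM-binding protein (at least 1.08-fold) were close to 1. No fold could be set for 10, among them Orc2 and Orc5 of the origin recognition complex, Cdc7 and Mtbp of origin firing, Fbxo31, Rpa2 and E2f3, since their E-IAAP means lay under the C-IAAP background level. The polymerase subunits Pold1 (3.57-fold) and Pole4 (2.91-fold) were lower in E-IAAPs, and the repressor E2f8, called lower too, was below background in both sets.

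Between control sets, 4 of the 76 were called higher in C-IAAPs (5.26%, against 6.11% of all genes) and 7 lower (9.21%, against 7.77%). Pold1 was at least 4.74-fold and Wdhd1, a fork component, at least 4.73-fold higher, while Timeless and E2f8 were below background on both arrays. Gins3 was 5.69-fold lower and Cul4b at least 1.23-fold lower. For the other 5 (Rpa1, Fbxo31, Mtbp, Prim1 and Orc2) the C-AT2 reading itself was under the C-IAAP background level, so no fold was set. In the interaction 4 of the 76 were called (5.26%, against 4.37% of all genes), namely Rpa1, Mtbp and Fbxo31 above 0 and Pold1 below. These comparisons share the C-IAAP array, so its readings enter each of them.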

How the data were processed

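RNA of sorted cells was amplified, labelled with Cy5 and hybridised to Agilent mouse arrays, 8 in all. The deposited values are log2 spot signals that the authors background-corrected with NormExp, using the negative control spots, before quantile normalization in limma, whose version is not given in the sources used here. All arrays therefore have a common distribution (median 5.35 over all 62976 spots, checked), a change shared by most genes cannot be seen, and depth has no meaning. The number of arrays limits the precision.

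Of the spots, 43941 carried 1 gene symbol, which gave 24306 genes, 11040 of them with more than 1 spot. The brightest spot was used. E-IAAPs and E-AT2s, and days 14 and 4, were compared in limma 3.58.1 (R 4.3.3) with day and population as terms, over 6 arrays. The other comparisons used all 8 arrays in 4 sets. Benjamini-Hochberg adjustment ran over all genes, with a threshold of 0.05, and the fits were tested on simulated data. Folds against a set below background are bounds from its background level. Values were handled in Python 3.11.15.

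Named genes are the 10 members, Mki67, Top2a, Pcna and Gmnn, up to 4 called members of each other replication list and the 5 genes most like the mean profile. Members, lists and the comparisons were chosen with earlier results of these data known. Alternatives were centring on genes used by every cell, a floor at background, the 12153 genes with the higher means, the mean of all spots, a day left out, and the day term added or dropped. Second spots and a common floor were added after seeing the data.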

Additional observations from a re-analysis of the deposited data

Results flagged for a closer look

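Mcm5 was the 1 gene of the 10 that moved in opposite directions in the AT2 and IAAP comparisons on every array. All 3 E-AT2 arrays lay above the C-AT2 array (6.58 to 8.62 against 5.94) and all 3 E-IAAP arrays lay below the C-IAAP array (7.13 to 8.22 against 8.58), with a fitted E-IAAP minus C-IAAP difference of -0.85. The limma test of the difference between the comparisons gave an interaction of -2.45 (standard error 1.12, adjusted p = 0.244), which did not pass. Both control readings of Mcm5 were below their array's background level, and it has 1 spot.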

How the results depend on the processing

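The fit of E-IAAPs against E-AT2s pairs the arrays by day; no pairing by replicate number was possible, since each set and day has 1 array. The count of the 10 genes called by limma stayed 0 in E-IAAPs against E-AT2s, day 14 against day 4 and E-AT2s against C-AT2s under every alternative run. For single genes, 444 values kept direction and side of the threshold, 18 came to pass it, 5 no longer passed, and 33 changed sign, mostly dim genes or values near 0. Causes were not tested unless stated.

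Centring on genes used by every cell gave 5 changes of sign: Mcm4 -0.08 and Cdc6 -0.02 (E-IAAPs minus C-IAAPs), Cdt1 -0.02 (day 14 minus day 4), Cdc45 0.04 (C-IAAPs minus C-AT2s) and -0.23 (interaction). Raising values to each array's own background level, which is higher on the C-IAAP array by construction, gave 4 of the 10 genes called against C-IAAPs (2 higher, 2 lower), 2 in C-IAAPs against C-AT2s, 222 genes in the interaction and 1 for day 14 against day 4. Calls over all genes in the 2 comparisons with C-IAAPs are not given here for this floor. The member counts of 4 and 2 are therefore not read as a result about these genes. Signs turned for Mcm2 (-1.13) and Cdc6 (-1.41) against C-IAAPs, Mcm2 in C-IAAPs minus C-AT2s (1.75), Mcm2 (-1.92) and Mcm3 (-0.08) in the interaction, and Cdt1 in day 14 minus day 4 (-0.1). With a common floor, over 8999 genes, the calls were 14 for E-IAAPs against E-AT2s, 2603 for E-IAAPs against C-IAAPs, 133 for E-AT2s against C-AT2s and 1785 for the interaction, where 1 of the 10 (Gins2) was called.

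With the 12153 genes of higher mean, 2 genes were called for day 14 against day 4, 1648 in the interaction with 1 of the 10 (Cdt1, -1.79), and 2 of the 10 in C-IAAPs against C-AT2s. The mean of all spots gave 2 of the 10 there, 1 gene for E-AT2s against C-AT2s and 547 in the interaction. For C-IAAPs against C-AT2s the calls over all genes under these settings are not given here. At day 7 the mean of all spots put 6 of the 10 over 2-fold higher in E-IAAPs than in C-IAAPs (3 on the brightest spots) and 1 past 2-fold between E-IAAPs and E-AT2s. These shares over all genes were not counted on the mean of spots. On the brightest spots they were 21.3% and 25.4%. The mean of all spots turned Gins2 (1.18 against C-IAAPs, -0.35 in C-IAAPs minus C-AT2s, -0.15 in E-AT2s minus C-AT2s, 1.32 in the interaction), Mcm7 (-0.68 in C-IAAPs minus C-AT2s, 1.1 in the interaction) and Cdc45 (0.33, day 14 minus day 4). Second spots, over 11040 genes, gave 129 calls for E-IAAPs against E-AT2s, 2043 for E-IAAPs and 1598 for C-AT2s against C-IAAPs, and 612 in the interaction with 1 of the 10 (Mcm6). They turned Gins2 (3.25, -2.46, -0.59 and 3.84 in the order of the mean of spots), Mcm7 (-2.44 and 3.02) and Cdc45 (0.73).

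Leaving out a day lowered every count of calls over all genes that was above 0, in part because fewer arrays leave fewer degrees of freedom. The counts were 0 in E-IAAPs against E-AT2s (318 with all days), 1402 to 2442 against C-IAAPs (4157), 1270 to 1873 in C-IAAPs against C-AT2s (3374) and 0 in the interaction (1062). Of the 10, 1 to 2 were called against C-IAAPs and 0 to 1 in C-IAAPs against C-AT2s. Signs turned in E-IAAPs minus E-AT2s for Mcm7 (-0.07 to 0.49), Cdc6 (-0.02 to 0.2) and Cdc45 (-0.42 to 0.03), against C-IAAPs for Cdt1 (-0.11 to 0.02), in E-AT2s minus C-AT2s for Cdc45 (-0.13 to 0.47) and Gins2 (-0.1 to 0.54), and in the interaction for Cdc6 (-0.14 to 0.08) and Cdc45 (-0.15 to 0.3).

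Without the day block, 483 genes were called in E-IAAPs against E-AT2s. With day as a term the calls were 1407 against C-IAAPs, 1640 in C-IAAPs against C-AT2s and 0 in the interaction.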
